A study of Homo sapiens with 12 samples.

Results

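The fast cells of this study were sequenced as 2 batches, and the comparison described here is fast batch 2 against fast batch 1, gene by gene. Its members are the 6 libraries labelled fast, 3 from each batch, out of 12 libraries in the series. They were chosen by label alone. All came from MDA-MB-231, a long-established human breast cancer line of the triple-negative kind, in which the estrogen, progesterone and HER2 receptors are low or lacking. The labels describe fast cells as captured by their trajectory, and the study set them beside the parental population of the same line, which was not captured. The 4 groups used are fast batch 1, fast batch 2, parental batch 1 and parental batch 2, with 3 libraries in each and no drug, dose or time given for any of them. The series text calls the 3 libraries of a batch technical replicates. Every p-value below therefore measures the spread between libraries of 1 batch, which may be technical, and each batch of fast cells is read as 1 preparation, which the labels do not state outright.

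Cells in culture keep part of their transcriptome on a short leash. Immediate early genes such as FOS and EGR1 are transcribed within minutes of a growth factor, serum or mechanical signal and decay quickly, and the AP-1 and NF-kB factors act on cytokine, prostaglandin and matrix protease genes. In MDA-MB-231 the ERK pathway and these outputs run at a high basal level. Other groups follow the culture more slowly: NRF2 targets handle oxidants and iron, interferon-stimulated genes and MHC genes serve antiviral defence and antigen display, and ribosomal protein and cell cycle genes follow growth.

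Total counts ran from 53267145 to 75944907 per library over the 12 libraries, and 22668 genes passed the filter on low counts. Levels are given in CPM, the counts of a gene divided by the library's TMM-scaled total and scaled up to a common size for all libraries. The line's markers were read first. VIM, the mesenchymal filament vimentin, stood at 6748 ± 170 CPM in batch 1 and 7076 ± 221 CPM in batch 2 (SD, n = 3 each), CDH1, the epithelial cadherin, had at most 4 counts in any fast library, and ESR1, the estrogen receptor, at most 16. Not all markers set as low or absent were that low. EPCAM, an epithelial adhesion molecule, was at 11.6 and 10.9 CPM, with up to 824 counts in a fast library. PGR, the progesterone receptor, was at 2.47 and 1.64 CPM and was called lower in batch 2 (edgeR adjusted p 0.0185). In parental cells PGR was at 0.615 and 0.338 CPM. Of 20 leukocyte markers, 14 had 10 counts or fewer in every fast library, and PTPRC, CD3E and CD79A were among them. Of 18 fibroblast markers this held for 13, and of 13 endothelial markers for 7. The summed level of the leukocyte list was 399 to 417 CPM in batch 1 and 396 to 402 CPM in batch 2, most of it from LAPTM5 and CD68, and that of the fibroblast list was 27.7 to 28.6 and 29.2 to 32.4 CPM. The endothelial list summed to 311 to 316 CPM in batch 1 and 337 to 347 CPM in batch 2, most of it from ESAM and ROBO4, which the line itself expresses.

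Between the 2 preparations of fast cells, 2594 genes were higher in batch 2 and 3561 were lower at an adjusted p under 0.05 in edgeR's quasi-likelihood test, which is 11.4% and 15.7% of the genes tested. With upper-quartile scaling the same test gave 3591 higher and 2548 lower, so the balance of small changes rests on the scaling. The typical change was small, with a median absolute log2 fold change of 0.16 over all genes. At 2-fold or more, 623 genes were higher (2.75%) and 231 lower (1.02%), and the 3 libraries of one batch did not overlap with those of the other for 598 and 211 of them. These genes were selected on the same libraries, so the lack of overlap follows largely from the selection and is not separate support. Its share over all genes tested is not given here. The 2 sides differed in kind. Among the 623 higher genes, 482 were processed pseudogenes, transcribed ones included, and 39 were protein-coding. Among the 231 lower genes, 152 were protein-coding. Over protein-coding genes alone, with p adjusted over them, 9.96% were higher in fast batch 2 and 22.4% lower. The same shares were 14.6% and 21.5% in parental cells, and 3.25% upward and 6.26% downward for the difference between the populations. The gene lists below hold almost only protein-coding genes and are to be read against these shares. Some genes belong to several lists, such as CALR to the unfolded protein response and MHC class I lists. Counts of such lists are therefore not independent.

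Parental cells, sequenced in the same 2 batches, show how much of this is shared. In them 3454 genes were higher in batch 2 (15.2%) and 3347 lower (14.8%). Of the 623 genes that were at least 2-fold higher in fast batch 2, 431 were also called higher in parental batch 2, and a test of the difference between the populations' batch effects called 6. Of the 231 lower genes, 74 were also called lower in parental cells, and for 51 the fall was larger in fast cells by the test of the difference. That test, the interaction of population and batch in the same edgeR fit, called 396 genes upward (1.75%) and 827 downward (3.65%) over all genes. With DESeq2's size factors it called 575 upward and 522 downward, so the side of the small differences rests on the scaling too. At 2-fold or more it called 25 upward (0.11%) and 67 downward (0.296%), and 30 and 57 with DESeq2's size factors. Without fast batch 2 replicate 1, 2 or 3 in turn the difference was called upward for 629, 632 and 803 genes and downward for 354, 337 and 356, and without parental batch 2 replicate 3 for 819 and 438. At 2-fold or more, leaving out that parental library gave 42 upward. Without fast batch 2 replicate 3, 2282 genes were lower in fast batch 2. Across 15924 genes with a mean of at least 1 CPM in fast cells, the batch log2 fold changes of the 2 populations correlated at 0.73 by Pearson's measure and 0.60 by Spearman's. Over the 12268 protein-coding genes among them both were 0.57. The populations share no library in these contrasts, genes are not independent replicates, and the correlations are given as a description.

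**Figure D1:**
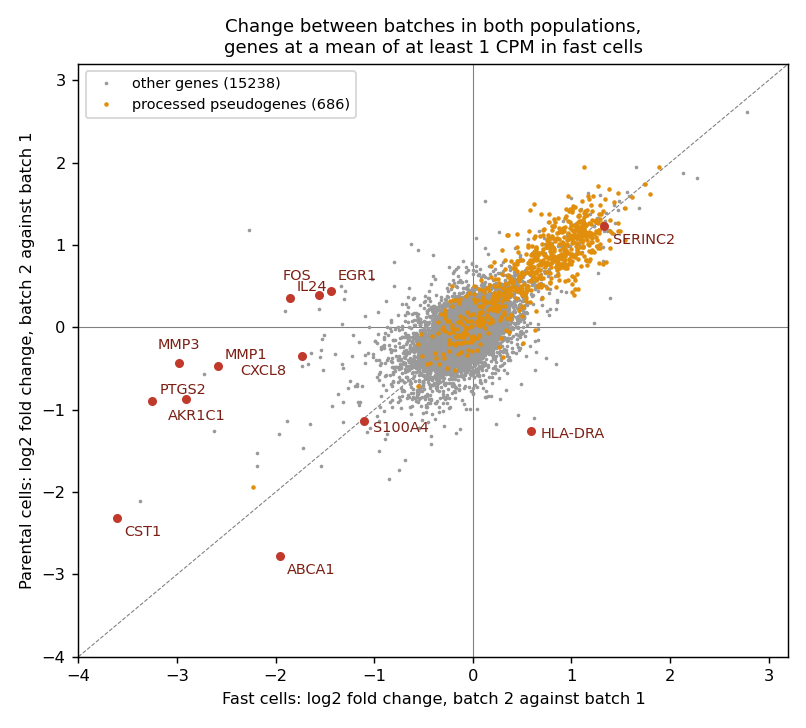
Log2 fold change of batch 2 against batch 1 in fast cells (x axis) and in parental cells (y axis), 1 point per gene at a mean of at least 1 CPM in fast cells, with processed pseudogenes in orange and the dashed line at equal change. Processed pseudogenes lie along the dashed line on the side of higher batch 2, while PTGS2, MMP1, IL24, CXCL8, FOS and EGR1 lie far to the left, with smaller falls in parental cells for PTGS2, MMP1 and CXCL8 and rises there for IL24, FOS and EGR1.

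Prostaglandin, cytokine and protease genes were among those with the steepest falls in fast batch 2. PTGS2, which encodes cyclooxygenase-2, the inducible enzyme of prostaglandin synthesis, was at 34.3, 27.9 and 31.3 CPM in the 3 libraries of batch 1 and at 2.77, 3.87 and 3.18 CPM in those of batch 2. Every batch 1 library was far above every batch 2 library. The mean fell 9.51-fold, from 31.1 ± 3.21 to 3.27 ± 0.559 CPM (SD, n = 3), a log2 fold change of -3.25 ± 0.09 (SE, edgeR adjusted p 7.8e-28). In parental cells PTGS2 fell from 12.2 to 6.57 CPM (log2 -0.89), and the difference between the falls was -2.36 ± 0.13 on the log2 scale (adjusted p 1.22e-17).

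IL24, a cytokine of the IL-10 family, was at 13.9, 13.4 and 12.4 CPM in batch 1 and at 3.18, 4.16 and 3.64 CPM in batch 2, without overlap (log2 -1.86 ± 0.10). In parental cells it went the other way, from 9.46 to 12.1 CPM (log2 0.35, adjusted p 0.0021). CXCL8, the neutrophil chemokine interleukin-8, listed under its older symbol IL8 in the table, was at 33.3, 29.2 and 31.8 CPM in batch 1 against 8.33, 9.8 and 10.3 CPM in batch 2. Its log2 fold change was -1.73 ± 0.07 in fast cells and -0.35 in parental cells. IL1B, the inflammatory cytokine interleukin-1 beta, fell from 8.21 ± 1.75 to 2.85 ± 0.217 CPM (log2 -1.53 ± 0.16), with the third library of batch 1 lower than the other two but still above all of batch 2. In parental cells its change did not pass the test (log2 -0.15, adjusted p 0.527).

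Among 24 tested NF-kB target and cytokine genes, 16 fell, 3 rose and 5 did not pass the test, with a median log2 fold change of -0.40 against -0.02 over all genes tested. In parental cells 9 of the 24 rose and 2 fell, and the test of the difference called 13 downward and none upward. CXCL3, a relative of CXCL8, fell from 2.45 to 1.15 CPM, ICAM1, the leukocyte adhesion molecule, from 12.2 to 7.97 CPM, and NFKBIA, the feedback inhibitor of NF-kB, from 33.4 to 25 CPM. IL6 fell from 2.55 to 1.65 CPM. The 3 that rose were NFKB1 (60.2 to 65.9 CPM), NFKBIE (23.2 to 26.7 CPM) and CXCL1 (1.76 to 2.56 CPM). CXCL1 is a chemokine of the same family as CXCL3, and its fast libraries overlapped between batches (1.43 to 2.24 and 2.05 to 2.88 CPM). CCL5, a T-cell chemokine, had the steepest fall of the list after PTGS2, at a low level (0.312 to 0.0323 CPM).

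**Figure D2:**
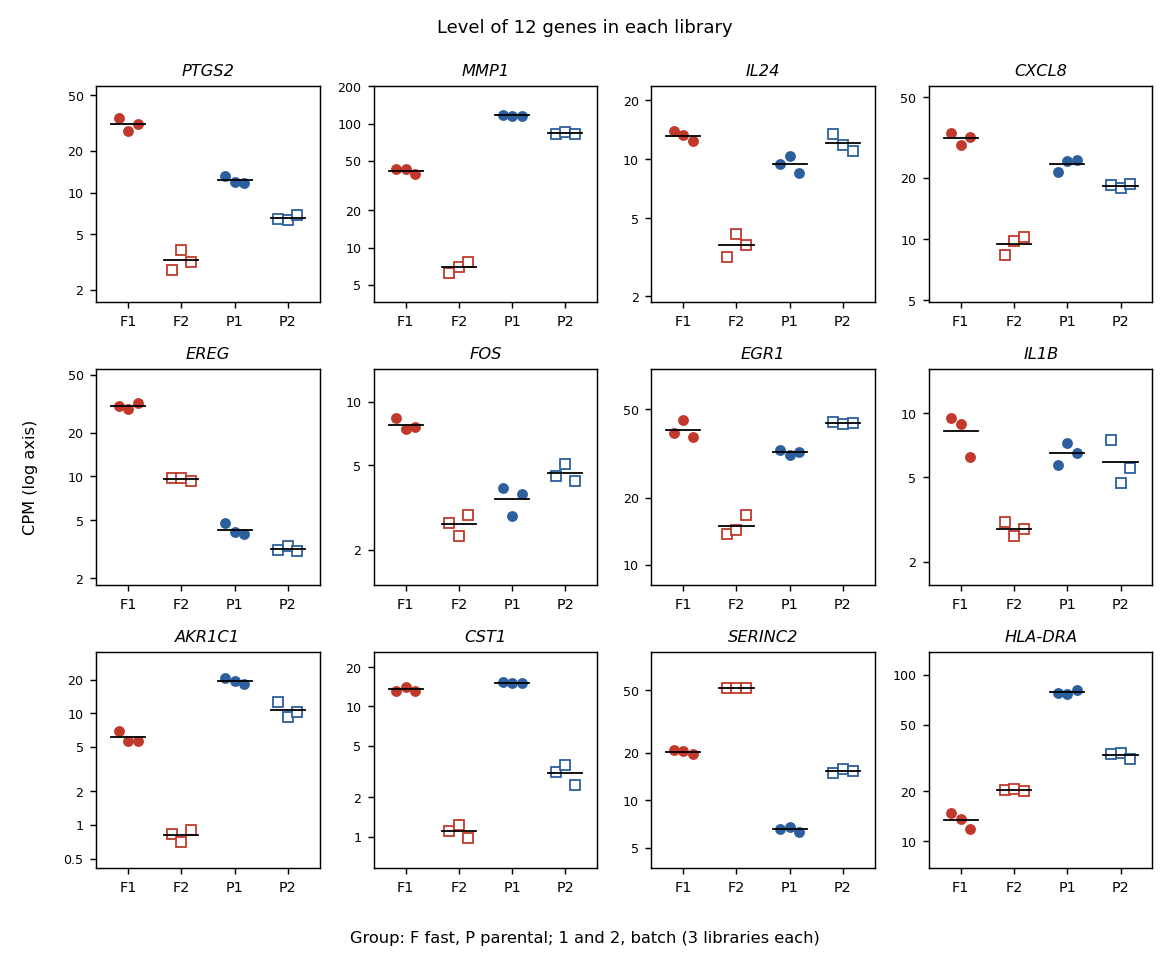
CPM on a log axis in each library for 12 genes, with fast cells in red, parental cells in blue, batch 1 as filled circles, batch 2 as open squares and the group mean as a bar. In PTGS2, MMP1, IL24, CXCL8, EREG, FOS, EGR1, IL1B, AKR1C1 and CST1 the open red squares lie below all filled red circles; SERINC2 rose in both populations and HLA-DRA moved in opposite directions.

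Immediate early genes fell together in fast batch 2. Of 24 tested immediate early and AP-1 genes, 18 fell, none rose and 6 did not pass the test, with a median log2 fold change of -0.47. In parental cells 8 of them rose and 1 fell, with a median of 0.13, and the test of the difference called 15 downward and none upward. FOS, a subunit of AP-1, was at 8.37, 7.45 and 7.56 CPM in batch 1 and at 2.69, 2.32 and 2.91 CPM in batch 2 (log2 -1.56 ± 0.12), while in parental cells it rose from 3.49 to 4.58 CPM. EGR1, a zinc finger factor induced by ERK, was at 39, 44.7 and 37.4 CPM in batch 1 and at 13.8, 14.3 and 16.7 CPM in batch 2 (log2 -1.44 ± 0.06), and rose from 32 to 43.5 CPM in parental cells. For both genes the 3 parental libraries of batch 2 were all above the 3 of batch 1, the reverse of the fast libraries.

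The nuclear receptors NR4A1 and NR4A2, also immediate early genes, fell from 1.82 to 0.482 CPM and from 4.29 to 1.47 CPM. FOSB, a relative of FOS, fell from 5.45 to 2.16 CPM and ATF3, a stress-induced partner of AP-1, from 9.38 to 4.6 CPM. JUN, the other main AP-1 subunit, fell less, from 221 to 156 CPM (log2 -0.50, adjusted p 0.00691), and JUNB from 43.4 to 32.2 CPM. The 6 that did not pass were MYC, SRF, JUND, KLF2, NR4A3 and BTG2. MYC was at 145 and 147 CPM.

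Genes of ERK feedback fell as well, with smaller folds. Of 18 tested, 12 fell and none rose (median -0.23), while in parental cells 8 fell and 3 rose. SPRY2, a Sprouty inhibitor of receptor kinase signalling, went from 83.6 ± 3.45 to 46.7 ± 0.941 CPM (log2 -0.84 ± 0.04) and was level in parental cells at 58.4 and 58 CPM (difference adjusted p 1.43e-14). IER3, an early response gene that prolongs ERK activity, fell from 295 to 183 CPM and rose in parental cells from 321 to 357 CPM. DUSP1, a phosphatase of the MAP kinases, fell from 31.7 to 23.3 CPM and rose in parental cells from 25.4 to 32.6 CPM. DUSP6, the phosphatase specific for ERK, was at 118 and 113 CPM and did not pass the test, nor did ETV4 and ETV5, transcription factors downstream of ERK.

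Among 10 tested genes of the EGF receptor family, the ligands EREG, AREG and TGFA and the receptor ERBB2 were called lower and the ligand HBEGF higher. EREG, epiregulin, was at 30.5, 28.9 and 32.1 CPM in batch 1 and at 9.76, 9.73 and 9.23 CPM in batch 2, a 3.19-fold fall without overlap (log2 -1.67 ± 0.07). In parental cells it fell from 4.31 to 3.15 CPM, and the difference was called (log2 -1.22 ± 0.12, adjusted p 5.07e-10). AREG, amphiregulin, fell from 2.06 to 1.26 CPM. HBEGF, another ligand of the same receptor, rose from 187 to 211 CPM (log2 0.18), and EGFR itself was at 587 and 560 CPM (adjusted p 0.137). The ERBB2 change was small, from 61.3 to 56.6 CPM, and its edgeR call was lost with upper-quartile scaling (adjusted p 0.167), without a filter, with a filter at 1 CPM, in a fit of the 6 fast libraries, without any fast library except batch 1 replicate 2, and without parental batch 2 replicate 3.

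The upstream sequence of the genes that fell was read from RefSeq promoter entries on GRCh38.p14, because FOS and its relatives bind a short AP-1 site and several of the falling genes are known AP-1 targets. The 6 below cover a prostaglandin enzyme, 2 cytokines, a growth factor and 2 immediate early factors. Each is the 250 bases before the annotated start, 5′ to 3′ in the gene's direction, in lower case, with matches to the AP-1 letters TGANTCA and to the TATA letters TATAAA in capitals, on either strand.
PTGS2 (chr1:186680424-186680673, minus strand): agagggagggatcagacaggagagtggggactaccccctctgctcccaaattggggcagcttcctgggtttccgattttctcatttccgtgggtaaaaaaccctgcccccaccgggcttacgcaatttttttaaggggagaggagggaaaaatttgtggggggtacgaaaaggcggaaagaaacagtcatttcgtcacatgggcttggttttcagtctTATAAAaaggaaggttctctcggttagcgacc
IL24 (chr1:206897193-206897442, plus strand): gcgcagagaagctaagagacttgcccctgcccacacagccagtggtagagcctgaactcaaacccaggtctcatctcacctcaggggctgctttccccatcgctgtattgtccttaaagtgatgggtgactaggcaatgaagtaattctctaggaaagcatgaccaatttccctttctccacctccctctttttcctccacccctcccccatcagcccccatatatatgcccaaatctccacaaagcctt
CXCL8 (chr4:73740319-73740568, plus strand): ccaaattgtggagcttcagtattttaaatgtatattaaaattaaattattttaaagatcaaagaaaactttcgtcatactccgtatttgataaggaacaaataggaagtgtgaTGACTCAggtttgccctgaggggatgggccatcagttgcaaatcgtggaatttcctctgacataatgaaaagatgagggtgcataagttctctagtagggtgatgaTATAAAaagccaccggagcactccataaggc
EREG (chr4:74364895-74365144, plus strand): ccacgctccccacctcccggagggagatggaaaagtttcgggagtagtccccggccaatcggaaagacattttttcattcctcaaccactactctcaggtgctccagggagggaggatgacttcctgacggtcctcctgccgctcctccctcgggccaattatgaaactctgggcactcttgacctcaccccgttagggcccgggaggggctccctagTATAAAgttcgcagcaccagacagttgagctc
FOS (chr14:75278578-75278827, plus strand): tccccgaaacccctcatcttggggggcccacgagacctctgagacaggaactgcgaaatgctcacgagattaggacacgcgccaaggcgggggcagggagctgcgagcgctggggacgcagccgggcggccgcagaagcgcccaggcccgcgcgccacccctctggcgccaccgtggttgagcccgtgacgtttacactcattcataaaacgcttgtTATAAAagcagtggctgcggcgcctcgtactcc
EGR1 (chr5:138465229-138465478, plus strand): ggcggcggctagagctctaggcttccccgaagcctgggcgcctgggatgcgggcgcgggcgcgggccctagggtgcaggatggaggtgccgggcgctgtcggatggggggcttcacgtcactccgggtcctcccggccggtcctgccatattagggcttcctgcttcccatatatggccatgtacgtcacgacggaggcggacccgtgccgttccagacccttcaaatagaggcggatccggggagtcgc
CXCL8 holds an AP-1 match that begins 137 bases before the start. TATAAA was found in PTGS2, CXCL8, EREG and FOS, beginning 31 to 33 bases before the start in each, and neither motif was found in IL24 or EGR1. The entries of MMP10 and IL1B were read as well and are not printed. MMP10 holds an AP-1 match that begins 67 bases before the start and TATAAA 31 bases before it, and IL1B holds neither. Of the 51 genes that fell at least 2-fold with a larger fall in fast than in parental cells, 34 had an entry. MMP1, MMP3 and CST1 had no entry, so the shares leave them out. TATAAA was in 11 of the 34 (32.4%), against 8.65% of the 12683 tested genes with an entry and 10.7% of all 35116 entries. TGANTCA was in 4 of the 34 (11.8%), against 6.51% and 6.57%. The hypoxia letters ACGTG were in 8 (23.5%, against 27.7% of tested genes) and the metal response letters TGCNCNC in 21 (61.8%, against 62.7%). The 34 genes were selected on these same libraries, and a match is a description of the letters in this window only.

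Matrix proteases of the cluster on chromosome 11 fell steeply. MMP1, the interstitial collagenase, was at 42.9, 43 and 39.2 CPM in batch 1 and at 6.19, 7.04 and 7.64 CPM in batch 2, a fall without overlap (log2 -2.59 ± 0.06, edgeR adjusted p 1.78e-33). In parental cells MMP1 fell from 116 to 84 CPM (log2 -0.47), and the difference was -2.12 ± 0.07 (adjusted p 1.18e-25). MMP3, stromelysin-1, was at 3.18, 2.53 and 2.43 CPM in batch 1 and at 0.346, 0.531 and 0.149 CPM in batch 2, with totals of 504 and 73 counts. MMP10, stromelysin-2, had 148 counts in all of batch 1 and 13 in all of batch 2 (log2 -3.66 ± 0.53). Its difference from parental cells did not pass the test (adjusted p 0.0699).

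WTAPP1, a pseudogene that overlaps MMP1, MMP3 and MMP10 on the opposite strand in GENCODE 29, fell from 5.96 to 0.894 CPM. The sources used here do not say whether counting used the strand, so its reads and theirs cannot be told apart. Of 34 tested matrix proteases and inhibitors, 18 fell, 2 rose and 14 did not pass (median -0.20), and in parental cells 14 fell and 4 rose. SERPINB2, the plasminogen activator inhibitor 2, fell from 2.29 to 0.935 CPM, and MMP14, the membrane-anchored protease that activates MMP2, from 824 to 639 CPM. PLAU, the urokinase, was at 418 and 422 CPM and did not pass the test. PLAT, the tissue plasminogen activator, and ADAMTS6 were the 2 that rose, from 89.9 to 98.3 and from 21.3 to 24.7 CPM.

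CST1, a secreted cysteine protease inhibitor of the cystatin family, had the largest fall in fast cells among genes with a mean of at least 5 CPM. It was at 13.2, 14.1 and 13.1 CPM in batch 1 and at 1.1, 1.22 and 0.981 CPM in batch 2, a 12.2-fold fall (log2 -3.61 ± 0.12, edgeR adjusted p 8.03e-27). It also fell in parental cells, from 15.2 to 3.06 CPM (log2 -2.31), less than in fast cells by the test of the difference (-1.29 ± 0.16). Its neighbour CST4 fell in both as well, from 2.31 to 0.221 CPM in fast cells and from 8.17 to 1.89 CPM in parental cells. Cystatin genes are close in sequence, so reads may be shared between them. ABCA1, the cholesterol efflux pump, fell from 9.2 to 2.37 CPM in fast cells (log2 -1.96) and further in parental cells (log2 -2.78, difference adjusted p 0.00132).

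Few genes were near absent in one preparation. Of 16232 genes with a mean of at least 1 CPM in 1 of the fast batches, none was 16-fold or more lower in the other batch. At 8-fold there were 4, all lower in batch 2: CST1, CST4, PTGS2 and KLRC2, a natural killer receptor gene at 1.06 and 0.108 CPM. No gene was 8-fold lower in batch 1.

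NRF2 target and iron genes fell almost without exception. Of 23 tested, 21 fell, 1 rose and 1 did not pass, with a median log2 fold change of -0.38, while in parental cells 9 fell and 5 rose. The test of the difference called 15 downward and none upward. AKR1C1, an aldo-keto reductase, was at 6.99, 5.66 and 5.61 CPM in batch 1 and at 0.825, 0.703 and 0.906 CPM in batch 2, a 7.5-fold fall (log2 -2.91 ± 0.14). In parental cells it fell from 19.5 to 10.7 CPM (log2 -0.87, difference adjusted p 1.19e-11). AKR1C2 and AKR1C3 are near-identical to it in sequence and fell too, AKR1C3 from 20.5 to 10.7 CPM, so their reads may be split between the copies.

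SLC7A11, the cystine importer, fell from 169 ± 6.13 to 93.7 ± 3.36 CPM (log2 -0.85 ± 0.04). HMOX1, heme oxygenase-1, fell from 26.1 to 17.3 CPM and rose in parental cells from 12.1 to 15.5 CPM. TXNRD1, thioredoxin reductase, fell from 714 to 491 CPM and NQO1, a quinone reductase, from 669 to 492 CPM. FTH1, the ferritin heavy chain, fell from 1068 to 707 CPM, and FTL, the light chain, from 2556 to 2216 CPM, while FTL rose in parental cells (log2 0.28). GPX4, the lipid peroxidase, was the 1 that rose (128 to 138 CPM), and NFE2L2, which encodes NRF2 itself, fell from 108 to 100 CPM.

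Other stress programmes fell in part. Of 16 unfolded protein response genes, 10 fell and none rose (median -0.12), led by DNAJB9, a chaperone of the endoplasmic reticulum, from 19 to 9.63 CPM. In parental cells 4 of the 16 fell and 2 rose. Of 23 ATF4 and amino acid supply genes, 8 fell (34.8%) and 3 rose (13%), against 22.4% and 9.96% of protein-coding genes. The list's median was -0.07, against -0.04 over protein-coding genes, so it lay near the general level. In parental cells 5 of the 23 fell and 7 rose. GDF15, a stress-induced cytokine, was at 7.98, 7.71 and 6.9 CPM in batch 1 and at 2.95, 2.88 and 2.72 CPM in batch 2 (log2 -1.40 ± 0.13), whereas the synthesis enzymes ASNS and PSAT1 and ATF4 itself did not pass the test. Of 28 hypoxia response genes, 17 fell and 3 rose (median -0.18), and in parental cells 17 fell and 1 rose. ANGPTL4, a secreted lipase inhibitor, fell from 7.87 to 3.14 CPM in fast cells and was at 11.6 and 11.9 CPM in parental cells (difference -1.36 ± 0.13, adjusted p 1.05e-10). VEGFA, the endothelial growth factor, fell from 109 to 78.8 CPM in fast cells and more steeply in parental cells, from 170 to 87.2 CPM.

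Heat shock genes moved little. Of 16 tested, 5 rose and 5 fell, with log2 fold changes from -0.28 to 0.13, and DNAJB4, a cytosolic co-chaperone, was the furthest down (14 to 11.5 CPM). The edgeR call for HSPA1A, an inducible chaperone at 15.1 and 13.3 CPM, was lost under most of the other settings tried.

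Interferon-stimulated and MHC class I genes fell in both populations. Of 44 tested interferon-stimulated genes, 29 fell, 1 rose and 14 did not pass in fast cells (median -0.33), and 30 fell and none rose in parental cells. IFIT2, an antiviral RNA-binding protein, fell from 77.1 to 41.5 CPM in fast cells and from 20.4 to 13.6 CPM in parental cells. OASL, a relative of the antiviral oligoadenylate synthetases, was at 22.3, 19.9 and 21.3 CPM in batch 1 and at 10, 10.1 and 9.02 CPM in batch 2 (log2 -1.12 ± 0.08). BST2, which tethers budding viruses, fell from 3.29 to 1.14 CPM in fast cells (log2 -1.54 ± 0.12) and only from 58.4 to 48.4 CPM in parental cells (difference adjusted p 9e-09). The test of the difference called 8 of the 44 downward and 1 upward.

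Of 18 MHC class I presentation genes, 14 fell and none rose in fast cells (median -0.21), and the same counts held in parental cells (median -0.25). HLA-B was at 243, 239 and 237 CPM in batch 1 and at 164, 162 and 167 CPM in batch 2 (log2 -0.54 ± 0.03). TAP1, the peptide transporter, fell from 42.3 to 30.5 CPM and was the 1 member whose fall was larger in fast cells by the test of the difference (adjusted p 0.0101). That call was lost without fast batch 1 replicate 1, without each fast batch 2 library (adjusted p up to 0.13) and without parental batch 2 replicate 1. HLA genes are near-identical to one another, so reads may be shared between them.

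MHC class II genes, which present extracellular peptides and are outside the class I list, gave the largest differences in the other direction. HLA-DRA, the alpha chain of HLA-DR, was at 14.8, 13.5 and 11.8 CPM in fast batch 1 and at 20.2, 20.5 and 20 CPM in fast batch 2, a rise without overlap (log2 0.59 ± 0.06). In parental cells it fell from 78.2 ± 2.05 to 32.8 ± 1.47 CPM, and the difference was 1.85 ± 0.08 (edgeR adjusted p 1.29e-21). HLA-DRB1 rose from 6.27 to 9.59 CPM in fast cells and fell from 44.6 to 20.8 CPM in parental cells. HLA-DRB5, near-identical to it, rose from 2.55 to 3.48 CPM, a call lost without fast batch 1 replicate 2 (adjusted p 0.0674).

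HLA-DPA1 (1.74 and 2.06 CPM) did not pass the test in fast cells and fell from 26.3 to 11.6 CPM in parental cells. CD74, the invariant chain that escorts class II molecules, was at 308 and 292 CPM in fast cells (adjusted p 0.0576) and fell from 385 to 193 CPM in parental cells. CIITA, the master activator of these genes, was at 16.6 and 17.4 CPM in fast cells and at 21.5 and 14.2 CPM in parental cells. PMEPA1, a TGF-beta feedback gene, followed the same course, with 7.01 and 7.72 CPM in fast cells and a fall from 43.1 to 24.2 CPM in parental cells.

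**Figure D3:**
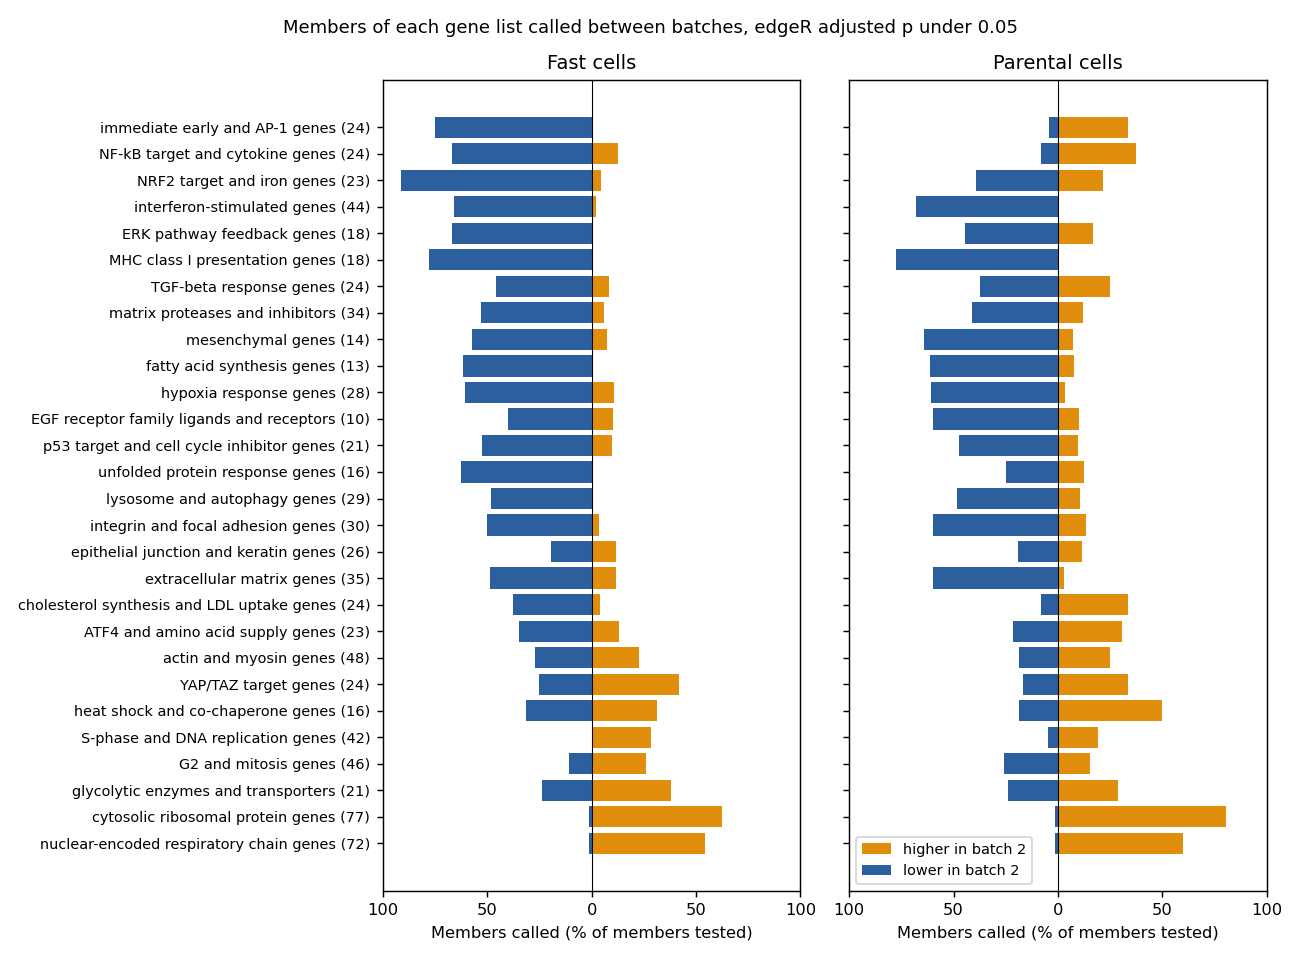
Share of the tested members of each gene list shown (number in parentheses) that were called higher (orange, right) or lower (blue, left) in batch 2, in fast cells and in parental cells, ordered by the median log2 fold change in fast cells. The leukocyte, fibroblast, endothelial, metallothionein, histone, mitochondrially encoded, small structural RNA and nuclear long noncoding RNA lists are left out. The immediate early, NF-kB and NRF2 lists point left in fast cells with fewer members to the left in parental cells, while the interferon, MHC class I, ribosomal protein and respiratory chain lists point the same way in both.

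Matrix and adhesion genes fell more often than they rose, in both populations. Of 35 extracellular matrix genes, 17 fell and 4 rose in fast cells (median -0.09), and 21 fell and 1 rose in parental cells. TNC, tenascin-C, was at 140, 145 and 139 CPM in batch 1 and at 77.2, 74.1 and 68.2 CPM in batch 2 (log2 -0.95 ± 0.04), a larger fall than in parental cells (127 to 85.3 CPM, difference adjusted p 2.14e-06). COL6A1 and COL6A2, collagen VI chains, fell from 214 to 147 and from 136 to 95.4 CPM. COL8A1, a chain of the network collagen VIII, rose from 32.3 to 45.1 CPM and fell in parental cells from 204 to 188 CPM (difference adjusted p 1.68e-10).

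Of 30 integrin and focal adhesion genes, 15 fell and 1 rose (median -0.11), and 18 fell and 4 rose in parental cells. ITGA2, a collagen-binding integrin chain, was at 295, 287 and 294 CPM in batch 1 and at 167, 156 and 152 CPM in batch 2 (log2 -0.88 ± 0.04), and its parental fall was alike in size (log2 -0.77, difference adjusted p 0.23). ZYX, zyxin, a focal adhesion protein that follows tension, was the 1 that rose, from 161 to 196 CPM. Among 14 mesenchymal genes 8 fell and 1 rose. S100A4, a calcium-binding protein tied to cell motility, was at 48.9, 44 and 45.1 CPM in batch 1 and at 21.8, 20.6 and 21.8 CPM in batch 2 (log2 -1.10 ± 0.05), and in parental cells it went from 46.9 to 21.3 CPM (log2 -1.14).

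Cytoskeleton genes moved both ways. Of 48 actin and myosin genes, 11 rose, 13 fell and 24 did not pass. RHOB, a short-lived small GTPase, fell from 25.1 to 14.8 CPM (log2 -0.76 ± 0.06) and was level in parental cells at 13.8 and 13.9 CPM. RND3, an atypical small GTPase, fell from 86.1 to 67.4 CPM, while the actin gene ACTB rose from 5549 to 6687 CPM. CNN2, calponin 2, rose from 110 to 145 CPM. Of 24 YAP/TAZ target genes, 10 rose and 6 fell. ANKRD1, a cardiac-type ankyrin repeat gene, was at 385, 395 and 387 CPM in batch 1 and at 531, 517 and 560 CPM in batch 2 (log2 0.46 ± 0.03), and CCN1 and CCN2, matricellular proteins, rose from 519 to 645 and from 485 to 590 CPM. All 3 also rose in parental cells.

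Lysosome, lipid and cell cycle inhibitor genes fell more often than they rose. Of 29 lysosome and autophagy genes, 14 fell and none rose (median -0.12), and in parental cells 14 fell and 3 rose (median -0.10). GABARAPL1, an autophagosome protein, fell from 19.3 to 9.69 CPM (log2 -0.99 ± 0.08), and SQSTM1, the autophagy receptor p62, from 691 to 519 CPM. Neither was called lower in parental cells, where GABARAPL1 was at 9.27 and 8.22 CPM and SQSTM1 rose from 253 to 269 CPM, and both differences were called. Of 13 fatty acid synthesis genes 8 fell and none rose (median -0.18), and in parental cells 8 fell and 1 rose. Of 24 cholesterol genes 9 fell and 1 rose, against 2 and 8 in parental cells. Of 21 genes of cell cycle inhibition and damage response, 11 fell and 2 rose (median -0.16), and in parental cells 10 fell and 2 rose. CDKN1A, the cell cycle inhibitor p21, was at 94.6, 93.5 and 93.4 CPM in batch 1 and at 66.9, 66.7 and 69.6 CPM in batch 2 (log2 -0.47 ± 0.04), and did not pass in parental cells (47.3 and 49.4 CPM).

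Cell cycle genes rose more often than they fell in fast cells, by small amounts. Of 42 S-phase and DNA replication genes, 12 rose and none fell (median 0.04), with GINS2, a part of the replicative helicase, the furthest up from 43.6 to 55.2 CPM. Of 46 G2 and mitosis genes, 12 rose and 5 fell (median 0.05), with KIF20B, a mitotic kinesin, from 187 to 227 CPM. In parental cells 7 of the 46 rose and 12 fell (median -0.02), and 8 of the 42 S-phase genes rose and 2 fell. Of 9 metallothionein and zinc genes 3 rose and 3 fell, with MT2A, the most abundant of them, up from 852 to 986 CPM and the zinc exporter SLC30A1 down from 50.9 to 32.4 CPM.

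The steepest rises in fast batch 2 were of small, short or repeated transcripts, and they were shared with parental cells. Among genes averaging 5 CPM or more, clone names left out, the 12 steepest rises included 7 that were pseudogenes by name and 2 mitochondrial transfer RNAs, and the other 3 were PABPC3, MTRNR2L12 and SERINC2. SERINC2, a membrane protein of the serine incorporator family, was at 21, 20.7 and 19.6 CPM in batch 1 and at 51.3, 51.5 and 51.4 CPM in batch 2, a 2.52-fold rise (log2 1.33 ± 0.05, edgeR adjusted p 3.09e-23). It rose from 6.55 to 15.4 CPM in parental cells, and the difference was not called (0.10 ± 0.08, adjusted p 0.618). PABPC3, an intronless copy of a poly(A)-binding protein gene, rose from 4.74 to 13.7 CPM, and MTRNR2L12, a nuclear copy of mitochondrial ribosomal RNA, from 13.1 to 33.4 CPM. Both resemble other transcripts closely, and their counts depend on how reads with several matches were treated.

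The mitochondrial transfer RNA MT-TF rose from 5.66 ± 1.78 to 25.2 ± 2.01 CPM, and MT-TV went from 7.14 ± 1.23 to 23 ± 1.71 CPM. TERC, the RNA template of telomerase, was at 0.642, 0.566 and 1.85 CPM in batch 1 and at 5.59, 6.71 and 7.95 CPM in batch 2 (log2 2.78 ± 0.46, adjusted p 0.00199). It rose in parental cells too, from 0.272 to 1.63 CPM. Of 9 tested small structural RNA genes, TERC was the 1 called, and RN7SL1, the signal recognition particle RNA, was at 48.2 and 27.8 CPM without passing the test.

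Processed pseudogenes are copies of messenger RNAs set back into the genome without introns. Of 686 with a mean of at least 1 CPM in fast cells, 482 were higher in batch 2 and 18 lower, with a median log2 fold change of 0.68, and the median in parental cells was 0.76. Protein-coding genes at the same level had a median of -0.04. For 539 of them a source gene was found by symbol, 281 source genes in all, and the source genes had a median of 0.04 while their pseudogenes had 0.67. Processed pseudogenes took 0.704% to 0.715% of counts in fast batch 1 and 0.844% to 0.854% in fast batch 2, and 0.668% to 0.704% and 0.868% to 0.876% in the parental batches. The 2 batches did not overlap, and the exact two-sided permutation p over 3 against 3 libraries was 0.1, the smallest this design can give.

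**Figure D4:**
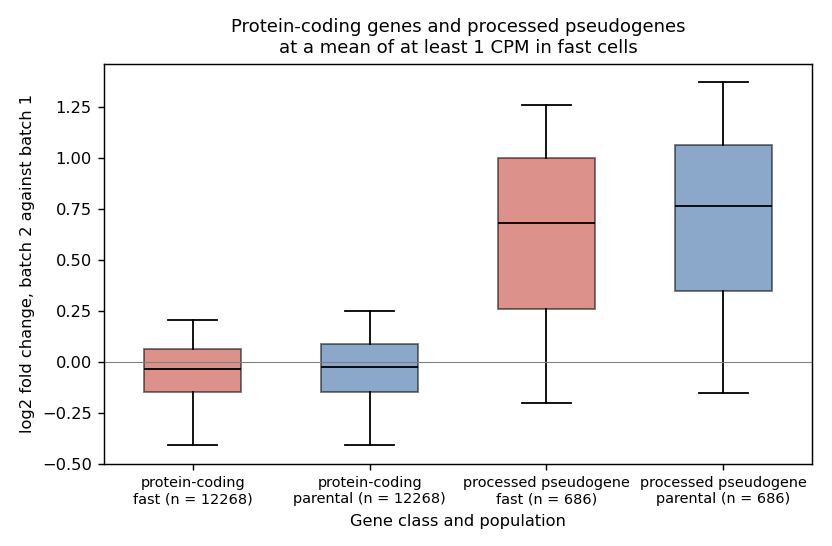
Log2 fold change of batch 2 against batch 1 for protein-coding genes and processed pseudogenes at a mean of at least 1 CPM, in fast (red) and parental cells (blue); boxes span the quartiles around the median line and whiskers the percentiles 5 and 95. The pseudogene boxes lie wholly above 0 in both populations, with medians of 0.68 and 0.76, while the protein-coding boxes straddle 0.

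Among protein-coding genes, shorter ones had the higher batch 2 values. With the genes in 5 equal bins by the length of their longest annotated transcript, the median log2 fold change in fast cells was 0.04, -0.00, -0.04, -0.06 and -0.11 from the shortest bin to the longest, and in parental cells it went from 0.04 to -0.11. Cytosolic ribosomal protein genes, which are short, had 48 of 77 tested members higher and 1 lower (median 0.11), and 62 higher and 1 lower in parental cells (median 0.19). RPL32, a protein of the large subunit, was at 354, 344 and 351 CPM in batch 1 and at 425, 418 and 443 CPM in batch 2. The ribosomal protein share of counts was 4.09% to 4.2% in batch 1 and 4.36% to 4.6% in batch 2 (exact permutation p 0.1).

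Nuclear-encoded respiratory chain genes had 39 of 72 members higher and 1 lower (median 0.12), and 43 higher and 1 lower in parental cells. The 13 mitochondrially encoded protein genes all had positive values, from 0.13 to 0.49 on the log2 scale, and MT-ND3 passed the test (463 to 576 CPM). The mitochondrial share of counts was 2.09% to 2.71% in batch 1 and 2.72% to 3.41% in batch 2, against 2.08% to 2.91% and 2.58% to 2.71% in parental cells. Of 12 nuclear long noncoding RNA genes, 5 rose, 1 fell and 6 did not pass, and in parental cells 5 rose and 2 fell. GAS5 (140 to 184 CPM) and SNHG1 (80.2 to 103 CPM), which host small nucleolar RNAs in their introns, rose in both populations. NEAT1, the long RNA of nuclear paraspeckles, was the 1 that fell, from 85.2 ± 13.4 to 50.7 ± 2.63 CPM. Whether pseudogene counts, gene length or RNA quality had a part in the other differences was not tested. In bulk RNA, fewer cells expressing a gene and less RNA per cell cannot be told apart.

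Few protein-coding genes rose by 2-fold or more. Of the 39 protein-coding genes at least 2-fold higher, 18 were also called higher in parental cells and 5 had a larger rise in fast cells by the test of the difference. Among genes with a mean of at least 5 CPM, chosen after their values were seen, RASGRF1, an activator of RAS, rose from 6.64 to 10.3 CPM in fast cells (log2 0.63) with -0.16 in parental cells (difference adjusted p 0.000133). HOXB9, a homeobox factor, rose from 18.6 to 27.2 CPM and UCP2, a mitochondrial carrier, from 24.8 to 37 CPM. Both also rose in parental cells, by less (log2 0.18 and 0.31).

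No chromosome moved as a whole. The median log2 fold change of protein-coding genes per chromosome lay between -0.08 (chromosome 14) and 0.01 (chromosome 16). Over 11105 overlapping runs of 51 neighbouring protein-coding genes the medians lay between -0.24 and 0.09, and 32 runs were beyond 0.2. The lowest runs were on chromosome 5 and held the protocadherin clusters, with -0.11 in parental cells. Protocadherin genes of a cluster share exons, so their counts are not independent.

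The sign of some differences between fast and parental cells depended on the batch. Fast cells were called higher in batch 1 and lower in batch 2 for 66 genes (0.291%), and the reverse for 22 (0.0971%), where 56.1% and 56% of genes were called between fast and parental cells in batch 1 and batch 2. Without fast batch 2 replicate 1, 2 or 3, or parental batch 2 replicate 3, the first count was 37, 33, 37 and 37, and the second reached 34, 39 and 44 without fast batch 2 replicate 1, replicate 3 and parental batch 2 replicate 3. PTGS2 was higher in fast cells in batch 1 (log2 1.35 ± 0.08) and lower in batch 2 (-1.01 ± 0.10). The same turn was seen for IL24 (0.49 and -1.73), EGR1 (0.34 and -1.54), CXCL8 (0.42 and -0.95), FOS (1.16 and -0.80), ATF3 (1.27 and -0.34) and OTUD1, a deubiquitinase (0.97 and -0.36). ARC, an immediate early gene best known in neurons, went from 1.19 to -2.25. CD74 turned the other way, from -0.32 in batch 1 to 0.60 in batch 2, and so did CIITA, from -0.37 to 0.29. For MMP1, by contrast, fast cells were below parental cells in both batches, at 41.7 against 116 CPM and at 6.96 against 84 CPM, and for EREG above in both, at 30.5 against 4.31 CPM and at 9.57 against 3.15 CPM.

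**Figure D5:**
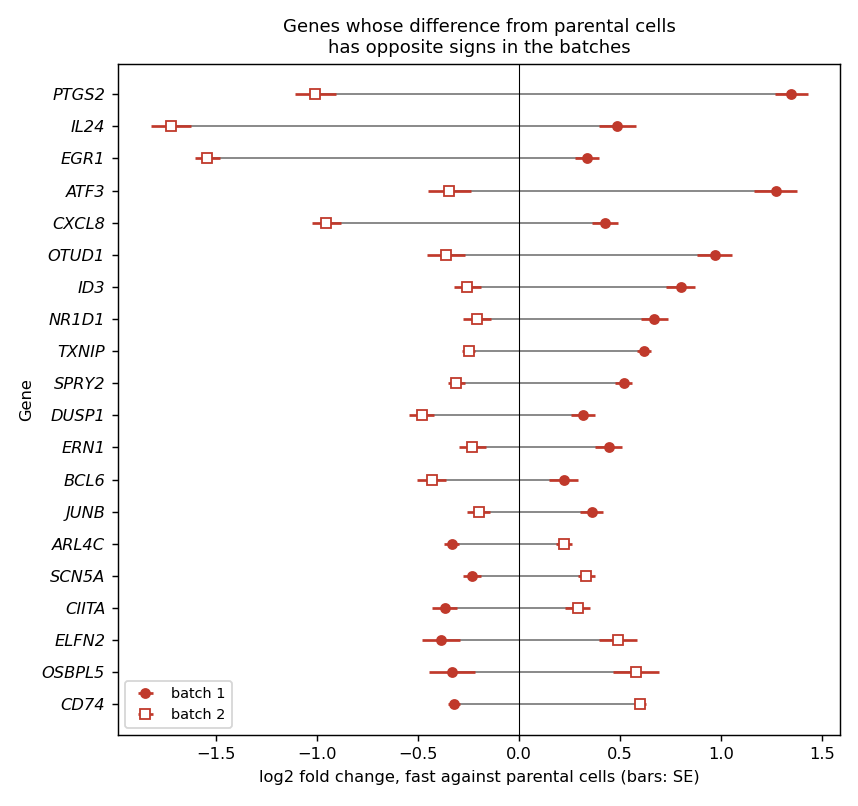
Log2 fold change of fast against parental cells in batch 1 (filled circles) and batch 2 (open squares), with standard errors, for the genes at a mean of at least 5 CPM with the largest turns of sign. PTGS2, IL24, EGR1, ATF3 and CXCL8 pass from above 0 to below 0, and CD74 and CIITA pass from below 0 to above 0.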

How the data were processed

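RNA from cultured MDA-MB-231 cells was extracted with a QIAGEN RNeasy micro kit and sequenced on Illumina, per the labels' protocols. The deposited table holds raw read counts per gene and library. Per the submitters' processing notes, Trimmomatic 0.32, STAR 2.3.0e and featureCounts 1.4.4 were used with hg19; strand and multiple-match settings are not given in the sources used here.

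The counts were filtered with filterByExpr (minimum count 10, minimum total 15), scaled by TMM and fitted over all 12 libraries in edgeR 4.0.16 (R 4.3.3), with robust quasi-likelihood tests, Benjamini-Hochberg adjustment over all 22668 genes and a threshold of 0.05. The standard error of a log2 fold change was derived from its F statistic. DESeq2 1.42.0 and limma 3.58.1 served as alternatives, with other scalings, filters and left-out libraries. Gene types, lengths and neighbours came from GENCODE 29 by gene ID (21551 genes), on another build than the counts. Its positions gave the chromosomes, the gene order and the overlaps, and no coordinates from it are printed. No columns were left unused. Within each batch of fast cells, no 2 libraries agreed within sampling noise.

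On simulated counts for 22254 genes, the fast comparison recovered 68%, 80%, 96% and 98% of 50 genes each changed by 1.25, 1.5, 2 and 4 fold, and called 6 of 22054 unchanged genes. The test of the difference recovered 46%, 72%, 84% and 98%, and called 12 of 22054. Apart from the changed genes, the simulated means were equal in both batches of a population, and the spread was that between libraries of a group. The simulation therefore does not cover the spread between preparations, or the scaling where many genes change as in these data.

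Genes were named by rule: the 12 largest called rises and falls at a mean of at least 5 CPM without clone names, up to 3 called members of each list at 1 CPM, the 6 largest called differences between populations per side at 5 CPM, and VIM, CDH1, ESR1, PGR, ERBB2 and EGFR. Further genes in the text were picked with their values known. The comparison and the gene lists were chosen with earlier results of these data known.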

Additional observations from a re-analysis of the deposited data

Results flagged for a closer look

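A difference between the populations marked these genes: the change from batch 1 to batch 2 in fast cells differed from that in parental cells by 2-fold or more and passed edgeR's test of the difference. Only genes named for the largest changes in fast cells or the largest differences between populations were looked at. Over all genes tested, 25 upward and 67 downward met the same size and test, ANGPTL4 among them, so the list is not complete. On the log2 scale, fast minus parental, the difference was -2.36 for PTGS2, -2.21 for IL24, -1.38 for CXCL8 and -1.38 for IL1B among inflammatory genes. It was -1.96 for FOS and -1.88 for EGR1, the immediate early factors, and -1.22 for the ligand EREG. MMP1 had -2.12 and WTAPP1, which overlaps it, -2.17. AKR1C1 had -2.04, the cystatin CST1 -1.29, OTUD1 -1.33 and LURAP1L -1.26. The MHC class II genes had differences of the other sign, with 1.85 for HLA-DRA, 1.72 for HLA-DRB1, 1.52 for HLA-DRB5 and 1.41 for HLA-DPA1. HLA-DRB1 and HLA-DRB5 are near-identical in sequence and are not separate evidence.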

How the results depend on the processing

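Of 120 called genes named by the rule, 111 kept their call and direction in fast cells under every setting run; the call was lost under some for RNA5-8SP6, HSPA1A, MTF1, ALDOC, CLDN1, ROBO4, HLA-DRB5, PGR and ERBB2. For the difference between populations in named genes, the call was lost in 49 gene-by-setting comparisons, gained in 27 and unchanged in 999. When leaving out 1 library it was lost in 99, gained in 24 and unchanged in 1329. The unchanged ones include genes not called in either fit, so these counts are not a rate of loss among called genes. List counts of calls moved by over 1.5 times in 75 comparisons and stayed within it in 645 (69 and 795 leaving out 1 library), and list medians moved by more than 1 SD between libraries in 45 and by less in 313 (32 and 400). A filter at 1 CPM left 247 genes at least 2-fold higher and 79 lower in fast cells, and 250 and 57 in parental cells, since fewer genes were tested. Protein-coding genes alone, an alternative chosen after seeing the data, gave 1421 higher and 40 at least 2-fold higher in fast cells, and 2089 and 41 in parental cells. The difference between populations was called downward for 522 genes with DESeq2's size factors, 549 with library totals and 527 (612 upward) with upper-quartile scaling. Without a filter it was 966 upward, 411 downward and 40 upward at 2-fold or more, at 1 CPM 740 upward and 43 downward at 2-fold or more, and by DESeq2's Wald test 777 upward. In parental cells the split was 3454 higher and 3347 lower, against 2553 and 4149 without a filter. The cause was not tested. Opposite signs in the 2 batches were found for 35 and 38 genes without a filter, and for 35 on the second side at 1 CPM. At 8-fold, 4 genes were near absent in batch 2. Leaving out 1 library gave 1974 to 3053 genes higher and 2282 to 3633 lower in fast cells (525 to 648 and 196 to 238 at 2-fold), 2620 to 3423 and 2802 to 4342 in parental cells (589 to 740 and 135 to 218), and 299 to 819 upward and 337 to 807 downward for the difference (23 to 42 and 49 to 71). Opposite signs ranged over 33 to 63 and 17 to 44. The share differences, in percentage points, ranged over 0.451 to 0.854 (mitochondrial), 0.255 to 0.375 (ribosomal protein), 0.31 to 0.461 (10 most abundant genes), 0.139 to 0.145 (processed pseudogenes) and 0.000512 to 0.000906 (histone). Deviations of same-numbered libraries correlated weakly (r of 0.05, -0.03 and 0.06 in fast cells, and -0.12, -0.11 and -0.11 in parental cells). Of 3 fast batch 1 libraries, 2 correlated best with their own number. With 3 libraries per group these values cannot decide whether the numbers pair the libraries. For part of the batch 1 libraries the deposited column names also carry another number than the replicate label. With the replicate number as a block, fast cells had 2449 genes up and 3415 down, and the difference was called upward for 354 and downward for 710. The series text calls the 3 libraries of a batch technical replicates, and if each batch is 1 preparation, the spread between preparations of fast cells is not measured.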
